A study of Bos taurus with 4 samples.

Results

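The mitochondrial carrier family (SLC25) and the machinery that brings proteins into mitochondria (the TIMM and TOMM genes) were examined in cattle blastocysts by donor age. Members were all probes whose gene symbol in the platform annotation starts with SLC25, TIMM or TOMM. They were 97 of 43794 probes and covered 58 of 15216 named genes, of which 37 were carriers (65 probes) and 21 were import genes (32 probes). A blastocyst is the embryo with a fluid-filled cavity, in which the trophectoderm surrounds the inner cell mass. The embryos came from oocytes of Holstein heifers collected at 8 months of age and, from the same heifers, at 14 months of age. Both collections followed progesterone and 6 FSH injections of 30 mg at 12 h intervals, and all oocytes were fertilized in vitro with semen of the same bull. Times of 36 h for aspiration, 43 h for pickup and 6 h for an amplification round were also recorded, the same for all 4 arrays. Pools of early blastocysts were taken 168 h after fertilization. Each of 4 two-colour arrays held both ages of 1 heifer, with the 8-month embryos in Cy5 for heifers 1 and 2 and in Cy3 for heifers 3 and 4.

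Values are log2 ratios of 8 over 14 months, so a positive value is higher at 8 months. The fitted ratio is given with its standard error (limma, n = 4 heifers). That error does not count how far the 2 dye orientations lie apart, since a dye term absorbs this, so the values of each heifer stand beside it. A gene passed where its Benjamini-Hochberg adjusted p over all 8398 detected genes was under 0.05. Levels are log2 channel intensities after normalization and compare samples for 1 probe, never probes with each other. The collection at 8 months always came first, so donor age and order of collection cannot be told apart. In pooled embryos, fewer cells of a type and less RNA per cell cannot be told apart either.

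Carriers of this family sit in the inner mitochondrial membrane and exchange metabolites, nucleotides and cofactors between the matrix and the cytosol. They are encoded in the nucleus and made in the cytosol. Most mitochondrial proteins enter through the TOM complex of the outer membrane. Those with a presequence then use the TIM23 complex and its motor, while the carriers themselves are escorted by small TIM chaperones to the TIM22 complex. The early embryo makes little use of glycolysis until the blastocyst stage and relies on mitochondria inherited from the oocyte.

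Of the 58 genes, 46 were detected, 27 carriers and 19 import genes. The 12 genes left out as too dim were SLC25A2, SLC25A24, SLC25A27, SLC25A31, SLC25A34, SLC25A36, SLC25A41, SLC25A42, SLC25A45, SLC25A46, TOMM20L and TOMM40. The probe of TOMM40, the channel of the outer membrane complex, cleared background in 0 of 4 samples from 8 months and in 2 of 4 from 14 months. On these arrays 43.3% to 51.1% of probes were above background in the Cy3 samples and 26.9% to 41% in the Cy5 samples. Ratios of heifers 1 and 2 correlated at r = 0.60 over all detected genes, those of heifers 3 and 4 at 0.37, and pairs of opposite dye orientation at -0.05 to 0.18. All 8 blastocyst markers were detected. TEAD4, a transcription factor of the trophectoderm, was higher at 8 months (0.56 ± 0.10). It passed under 8 of 15 alternatives, among them scaling between arrays (Aquantile), which leaves every ratio unchanged. The other 7 markers did not pass. Their fitted ratios were -0.30 (KRT8), -0.08 (GATA3), 0.05 (SOX2), 0.09 (NANOG), 0.16 (CDX2), 0.17 (KRT18) and 0.20 (POU5F1). Of markers of other cells the samples could hold, 4 of 9 for cumulus and granulosa cells, 3 of 8 for oocytes, 3 of 6 for sperm and 3 of 5 for blood were detected, and 0 of these 13 passed. The 4 detected cumulus and granulosa genes all had a fitted ratio below 0, with a median of -0.21. The lowest was that of HSD3B1 (-1.13, 0.56, -1.15 and -1.09 in heifers 1 to 4). The 3 sperm genes also all lay below 0 (median -0.20), and the 3 blood genes all above 0 (median 0.06). Of the oocyte genes 2 lay above 0 and 1 below. PRM1 cleared background in 0 of 4 samples from 8 months and in 3 of 4 from 14 months. TNP1 and CYP19A1 did so in 2 and 4, and ZP3 in 2 and 3. These genes entered the test through their 14-month samples alone, which favours a ratio below 0. CDX2 entered through its 8-month samples alone (3 of 4, against 2 of 4), which favours a ratio above 0. The signs of these genes thus support nothing about the cells. The part of such cells in the results below was not tested.

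Across both families, 4 of 46 detected genes passed, or 8.70%, where 4.50% of all genes did. SLC25A30 and SLC25A4 were higher at 8 months, and SLC25A12 and TOMM34 were lower. Both lower genes entered the test through their 14-month samples alone, the age at which they were brighter, so their number supports nothing about the families. With detection required in all 8 samples, 2 of 37 members passed (SLC25A30 and SLC25A4), or 5.41%, against 5.84% of all genes. Among all genes 1.70% passed as higher and 2.80% as lower. Of the 46, 11 had an unadjusted p under 0.05, or 23.9%, against 27.3% of all genes. The same 4 genes were the members whose levels at the 2 ages did not overlap, or 8.70% of members, against 4.76% of all genes. Without heifer 1, 2 or 3 in turn, 0 of the 4 passed, and without heifer 4 only SLC25A30 still did (limma). Such losses were general: of all 8398 genes, 0 passed without heifer 1, 0 without heifer 2, 2 without heifer 3 and 339 without heifer 4, with 1351 to 2117 at an unadjusted p under 0.05. Without a dye term, 0 of 8398 genes passed and 1544 had an unadjusted p under 0.05. Over these 4 omissions the adjusted p ran from 0.0742 to 0.246 for SLC25A4, 0.0474 to 0.240 for SLC25A30, 0.0797 to 0.258 for SLC25A12 and 0.0667 to 0.240 for TOMM34, and no ratio changed sign. The remaining 42 genes did not pass, and with 4 heifers a p above the threshold does not show that the ages were alike.

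Carriers of adenine nucleotides and phosphate link the ATP made in the matrix to its use in the cytosol. On the array 8 of them had a probe and 5 were detected, of which 1 was higher at 8 months and 4 did not pass. So 20% passed, against 4.50% of all genes. Of the 5, 3 had an unadjusted p under 0.05 (limma; 60%, against 27.3% of all genes). These shares rest on 5 genes. SLC25A4, an ADP/ATP carrier (ANT1), had levels of 14.11, 13.70, 13.70 and 13.59 at 8 months in heifers 1 to 4, against 13.21, 13.15, 13.49 and 13.28 at 14 months. Every 8-month sample lay above every 14-month sample. Its ratio was 0.90, 0.55, 0.21 and 0.31 in heifers 1 to 4, and the fitted ratio was 0.49 ± 0.10, a 1.41-fold difference (adjusted p = 0.042). Without a dye term its adjusted p was 0.132, and over the alternatives tried it ran from 0.0304 to 0.641. SLC25A4 passed under 7 of 16 alternatives, among them Aquantile scaling, which leaves every ratio unchanged. Median centring in place of loess lowered the ratio of SLC25A4 to 0.097, and the median of all genes to -0.18.

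SLC25A6, another ADP/ATP carrier (ANT3), had levels of 12.03, 11.74, 11.67 and 10.98 at 8 months, against 11.95, 11.48, 9.86 and 10.52 at 14 months, and the ages overlapped. Its ratio was 0.08, 0.25, 1.81 and 0.46, positive in all 4 heifers and far greater in heifer 3. The fitted ratio of SLC25A6, 0.65 ± 0.19, did not pass (adjusted p = 0.0815). It rested on heifer 3, without which it was 0.31 (adjusted p = 0.209), and without heifer 4 it was 0.99 (adjusted p = 0.0252).

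SLC25A5, the ADP/ATP carrier of proliferating cells (ANT2), was represented by its brightest probe. On that probe it had levels of 14.65, 15.43, 15.36 and 15.14 at 8 months, against 15.08, 15.57, 15.63 and 14.97 at 14 months. The fitted ratio was -0.17 ± 0.12 (adjusted p = 0.363), with negative ratios in heifers 1, 2 and 3 and a positive one in heifer 4. Its other probe gave -1.03, -0.77, -0.50 and -0.17 in heifers 1 to 4 and a fitted ratio of -0.62 ± 0.11. That was 1 of 62 member probes that passed when all 17685 detected probes were tested (adjusted p = 0.0457), where 1.88% of all probes passed. Both probes of SLC25A5 thus had a ratio below 0, and they differed in size by more than either standard error.

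The 3 ADP/ATP carriers are close paralogues, and cross-hybridisation between their probes was not tested. In heifers 1 to 4 the ratio of SLC25A4 exceeded that of SLC25A5 by 1.34, 0.70, 0.49 and 0.14. The ratio of SLC25A6 exceeded that of SLC25A5 by 0.52, 0.39, 2.08 and 0.29, again with 1 sign in every heifer. Between SLC25A4 and SLC25A6 the difference was 0.81, 0.30, -1.60 and -0.16, so their order changed with the heifer. These pairs were picked with the values known and carry no test.

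SLC25A25, an ATP-Mg/phosphate carrier, had ratios of 0.40, 0.23, 0.19 and 0.14 in the 4 heifers and a fitted ratio of 0.24 ± 0.10 that did not pass (adjusted p = 0.158). SLC25A3, which brings phosphate into the matrix for ATP synthesis, had levels of 13.02, 13.19, 12.59 and 11.98 at 8 months, against 12.74, 12.89, 12.79 and 12.04 at 14 months. Its ratios were positive in heifers 1 and 2 (0.29 and 0.30) and negative in heifers 3 and 4 (-0.19 and -0.06). The fitted ratio of SLC25A3 was 0.08 ± 0.10 (adjusted p = 0.608), and it turned to -0.27 when arrays were centred on the median in place of loess.

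**Figure D1:**
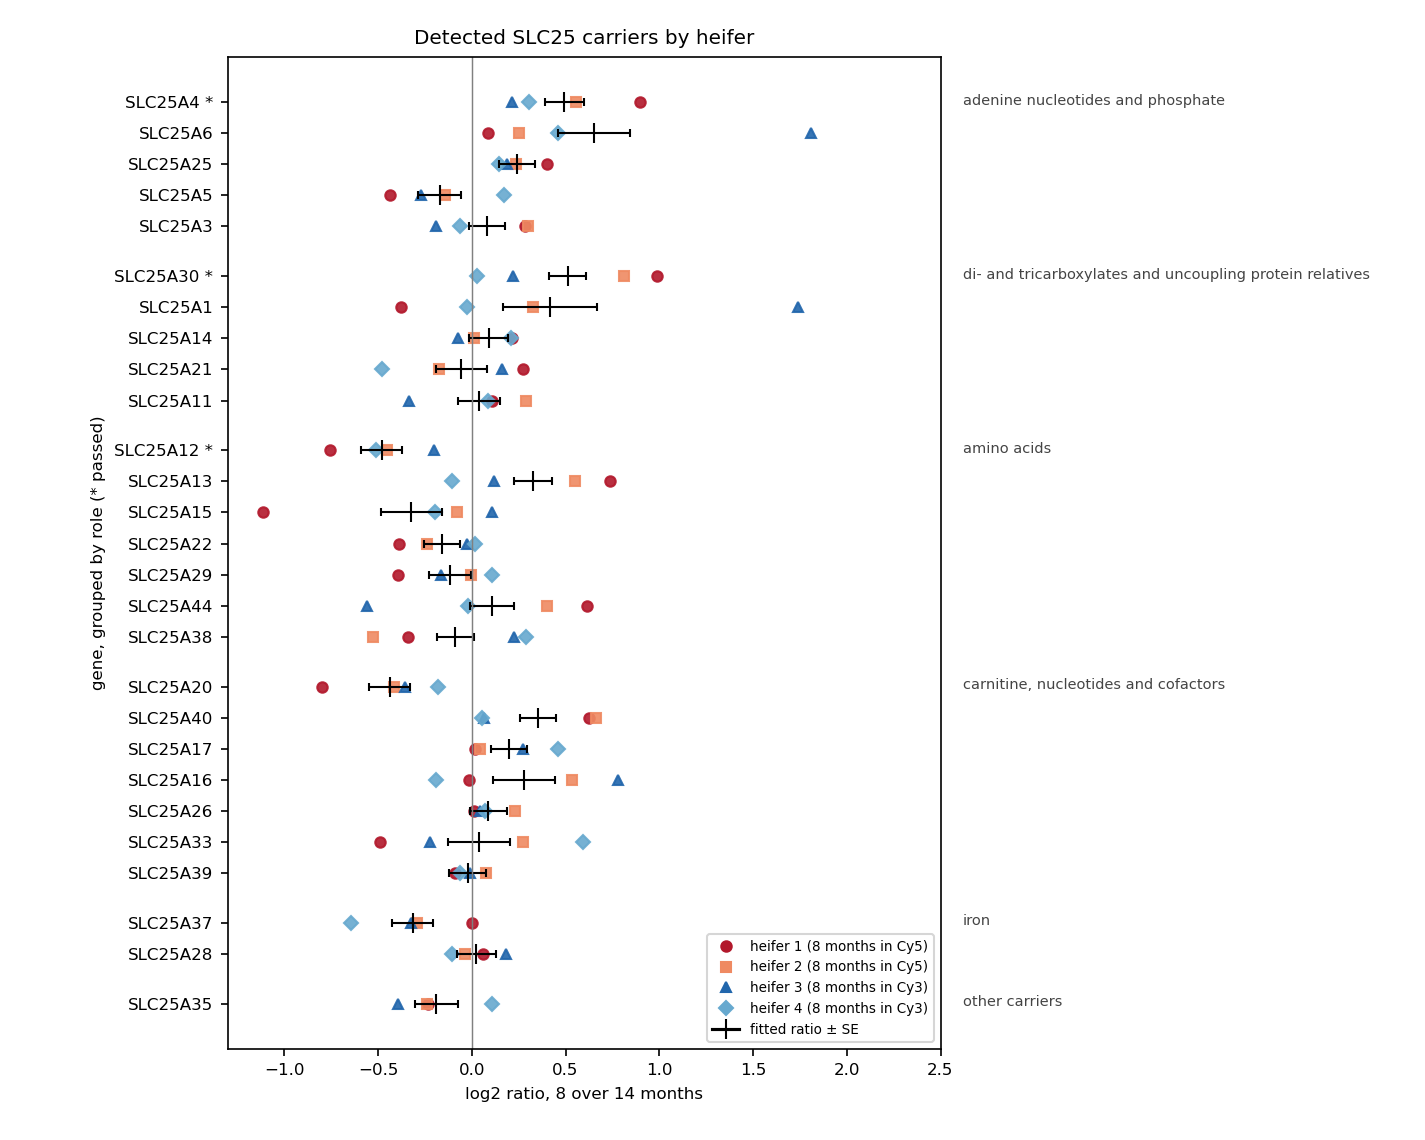
Log2 ratio of 8 over 14 months (x axis) for the 27 detected carriers, grouped by what they carry (y axis). Coloured points are the 4 heifers, black bars the fitted ratio with its standard error, and asterisks mark the 3 genes that passed, of which SLC25A4 and SLC25A30 lie right of 0 in every heifer and SLC25A12 left of it.

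Among carriers of di- and tricarboxylates and relatives of the uncoupling proteins, 6 had a probe and 5 were detected, 1 higher at 8 months and 4 not past the test. So 20% passed, against 4.50% of all genes, and 20% had an unadjusted p under 0.05 (limma), against 27.3%. SLC25A30, a relative of the uncoupling proteins first described in kidney, had levels of 10.04, 9.68, 9.16 and 9.11 at 8 months, against 9.05, 8.87, 8.95 and 9.08 at 14 months. The levels did not overlap, but the lowest 8-month sample was barely above the highest 14-month sample. Its ratio was 0.99 and 0.81 in heifers 1 and 2 and 0.22 and 0.03 in heifers 3 and 4, with pair means of 0.90 and 0.12. The fitted ratio of SLC25A30 was 0.51 ± 0.10, a 1.43-fold difference (adjusted p = 0.0379), where the SD over the 4 heifers was 0.46. Without a dye term its adjusted p was 0.178, and over the alternatives it ran from 0.0282 to 0.292. SLC25A30 passed under 8 of 16 alternatives, Aquantile scaling among them. Median centring gave SLC25A30 a ratio of 0.29.

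SLC25A1 exports citrate, the source of cytosolic acetyl-CoA for lipid synthesis. It had levels of 10.17, 10.47, 11.13 and 9.80 at 8 months, against 10.55, 10.14, 9.39 and 9.83 at 14 months, so the ages overlapped. Its ratio was -0.38, 0.32, 1.74 and -0.02, and heifer 3 alone held a large difference. The fitted ratio of 0.42 ± 0.25 did not pass (adjusted p = 0.308) and was -0.025 without heifer 3. Without heifer 4 it was 0.86 with an adjusted p of 0.0333. For the other detected carriers of this role, SLC25A11 (oxoglutarate and malate), SLC25A14 and SLC25A21 (oxodicarboxylates), the fitted ratios were 0.04, 0.09 and -0.05.

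Among amino acid carriers 8 had a probe and 7 were detected, of which 1 was lower at 8 months and 6 did not pass. So 14.3% passed, against 4.50% of all genes, and 28.6% had an unadjusted p under 0.05 (limma), against 27.3%. The 1 that passed entered the test through its 14-month samples alone. SLC25A12, an aspartate/glutamate carrier of the malate-aspartate shuttle (aralar), had levels of 7.14, 7.13, 7.50 and 7.29 at 8 months, against 7.89, 7.58, 7.70 and 7.80 at 14 months. The 8-month samples were all below the 14-month samples. Its ratio was -0.76, -0.45, -0.20 and -0.51, and the fitted ratio was -0.48 ± 0.11 (adjusted p = 0.0483). Its probe cleared background in 0 of 4 samples from 8 months and in 3 of 4 from 14 months, so the size is uncertain. SLC25A12 was 1.32-fold lower at 8 months when the 8-month samples were set at the lowest signal above background or their own signal, whichever was higher. The 14-month samples kept their measured signal, so this value is not a lower limit. Without a dye term its adjusted p was 0.121, over the alternatives it ran from 0.0358 to 0.330, and mean in place of median pixel intensities gave -0.16. SLC25A12 passed under 4 of 15 alternatives, Aquantile scaling among them.

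SLC25A13 (citrin) carries the same substrates as SLC25A12. Its levels were 11.39, 11.64, 11.07 and 11.74 at 8 months, against 10.65, 11.09, 10.95 and 11.84 at 14 months, with overlap. The ratio was 0.74, 0.55, 0.12 and -0.10, and the fitted ratio of 0.33 ± 0.10 did not pass (adjusted p = 0.0929). The ratio of SLC25A12 was below that of SLC25A13 in every heifer, by -1.49, -1.003, -0.32 and -0.41. This pair too was picked with the values known and carries no test.

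The other amino acid carriers gave fitted ratios between -0.32 and 0.11, and none of the 5 passed. SLC25A15, the ornithine carrier of the urea cycle, had the lowest, which came from heifer 1 (-1.12), while heifers 2 to 4 lay between -0.20 and 0.11. Its probe cleared background in 1 of 4 samples from 8 months and in 3 of 4 from 14 months. It thus entered the test through its 14-month samples alone, which favours a ratio below 0, and the size is uncertain. The same holds for SLC25A29 (2 of 4 and 3 of 4). SLC25A22 carries glutamate, SLC25A29 basic amino acids and SLC25A44 branched-chain amino acids. SLC25A38, a glycine carrier used in heme synthesis, had 3 detected probes with ratios from -0.09 to 0.23.

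**Figure D2:**
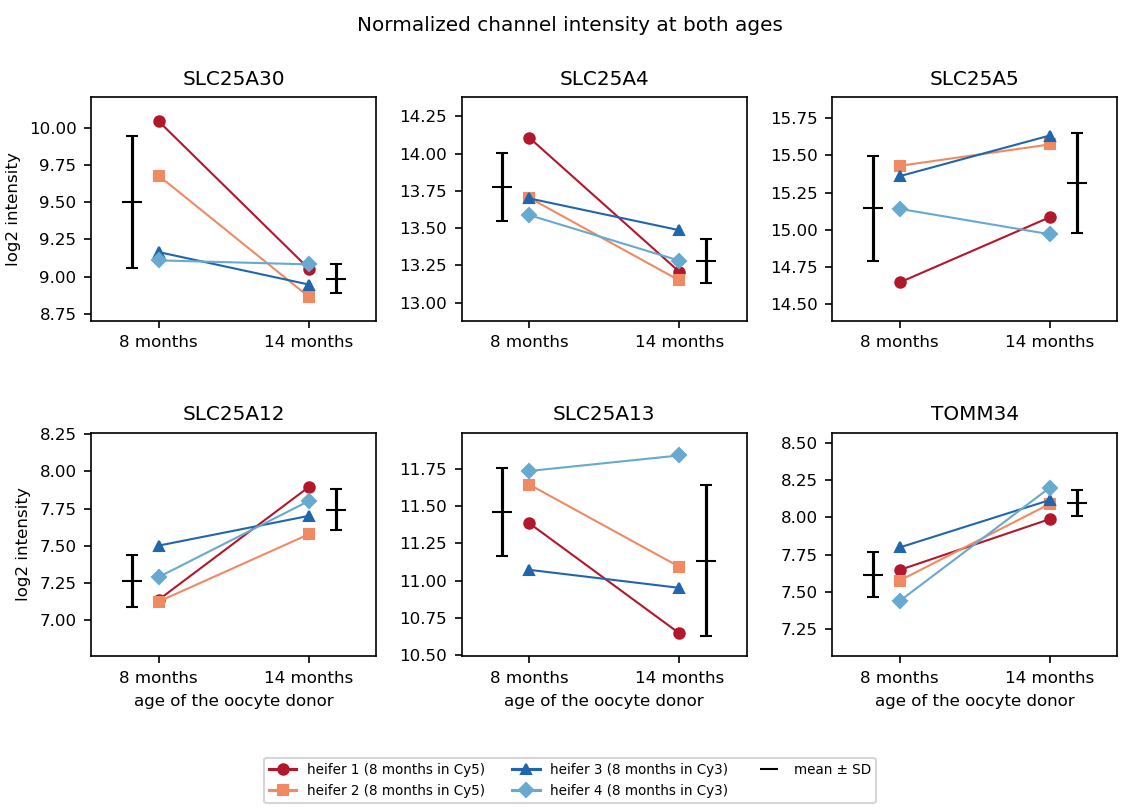
Normalized log2 intensity (y axis, the same span in each panel) of SLC25A30, SLC25A4, SLC25A5, SLC25A12, SLC25A13 and TOMM34 at 8 and at 14 months (x axis). Lines join the samples of 1 heifer and black bars are mean ± SD (n = 4). The ages are separate for SLC25A30, SLC25A4, SLC25A12 and TOMM34 and overlap for SLC25A5 and SLC25A13.

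Of 9 carriers of carnitine, nucleotides and cofactors that met the symbol rule, 7 were detected and 0 passed. Of the 7, 2 had an unadjusted p under 0.05, 1 in each direction (limma; 28.6%, against 27.3% of all genes). SLC25A20 takes acylcarnitines into the matrix for fatty acid oxidation. It had levels of 7.18, 7.78, 7.79 and 8.13 at 8 months, against 7.98, 8.19, 8.15 and 8.31 at 14 months. In each heifer the 8-month sample was the lower, with ratios of -0.80, -0.41, -0.36 and -0.18, though the ages overlapped across heifers. The fitted ratio was -0.44 ± 0.11, just outside the threshold (adjusted p = 0.0579). The probe of SLC25A20 cleared background in 3 of 4 samples from 8 months and in 4 of 4 from 14 months.

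SLC25A40 is a carrier of glutathione. It had levels of 10.46, 10.50, 10.33 and 10.56 at 8 months, against 9.83, 9.83, 10.26 and 10.51 at 14 months. The 8-month samples spanned a narrow range, and the 14-month samples of heifers 1 and 2 lay below those of heifers 3 and 4. Its ratio was 0.63, 0.66, 0.07 and 0.05, so the difference sat in 1 dye orientation, and the fitted ratio of 0.35 ± 0.10 did not pass (adjusted p = 0.0679). Its paralogue SLC25A39, also a glutathione carrier, had a fitted ratio of -0.02 ± 0.10, and its 3 probes lay between -0.14 and -0.02. The probes other than the brightest entered the test through their 14-month samples alone (3 of 4, against 2 of 4 from 8 months). The other members of this role had fitted ratios from 0.04 for SLC25A33, a pyrimidine nucleotide carrier, to 0.28 for SLC25A16. SLC25A26, which imports S-adenosylmethionine, had a fitted ratio of 0.09.

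Both mitoferrins, which bring iron into the matrix, were detected and neither passed. SLC25A37 (mitoferrin 1) had levels of 8.71, 8.74, 9.70 and 8.75 at 8 months, against 8.71, 9.03, 10.02 and 9.40 at 14 months. Its ratio was 0.00, -0.29, -0.32 and -0.64, with a fitted ratio of -0.31 ± 0.11 (adjusted p = 0.116), and its second probe gave -0.22. SLC25A28 (mitoferrin 2) had ratios of 0.06, -0.03, 0.18 and -0.11 and a fitted ratio of 0.03 ± 0.10 (adjusted p = 0.898). It turned to -0.047 without heifer 3 and to -0.0015 with mean pixel intensities. Of 4 carriers outside these roles only SLC25A35 was detected, at -0.19 ± 0.11 (adjusted p = 0.307).

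The TOM complex of the outer membrane had 9 genes on the array, 7 detected, of which 0 passed. Of the 7, 1 had an unadjusted p under 0.05 (limma; 14.3%, against 27.3% of all genes). TOMM40L, a paralogue of the channel TOMM40, had levels of 8.09, 8.44, 8.40 and 8.02 at 8 months, against 8.43, 8.48, 8.86 and 8.18 at 14 months. Its ratio was below 0 in all 4 heifers (-0.34, -0.05, -0.46 and -0.16), with a fitted ratio of -0.25 ± 0.11 (adjusted p = 0.178). TOMM5, a small subunit, had levels of 11.98, 12.03, 12.13 and 12.08 at 8 months, against 12.28, 12.12, 11.25 and 11.76 at 14 months. Its ratio was negative in heifers 1 and 2 (-0.30 and -0.09) and positive in heifers 3 and 4 (0.88 and 0.32). The fitted ratio of TOMM5 was 0.20 ± 0.12 (adjusted p = 0.302).

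TOMM20, the presequence receptor, had levels of 11.32, 12.19, 11.89 and 11.24 at 8 months, against 11.65, 12.14, 11.94 and 11.57 at 14 months, and a fitted ratio of -0.16 ± 0.11 (adjusted p = 0.363). The other receptors, TOMM22 and TOMM70, had fitted ratios of -0.08 and -0.07. The small subunits TOMM6 and TOMM7 had 0.02 and -0.06. Over the 7 detected genes of the complex, 2 ratios were above 0.

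TOMM34, a cytosolic co-chaperone that binds precursor proteins and Hsp70 and Hsp90, was the only import gene that passed. It had levels of 7.65, 7.58, 7.80 and 7.44 at 8 months, against 7.99, 8.09, 8.12 and 8.20 at 14 months. All 8-month samples lay below all 14-month samples. Its ratio was -0.34, -0.51, -0.32 and -0.76, of like size in both dye orientations (pair means -0.43 and -0.54), and the fitted ratio was -0.48 ± 0.11 (adjusted p = 0.0498). The probe cleared background in 2 of 4 samples from 8 months and in 4 of 4 from 14 months, so the size is uncertain, and mean in place of median pixel intensities gave -0.25. TOMM34 did not pass without a dye term (adjusted p = 0.119), and over the alternatives its adjusted p ran from 0.00852 to 0.331. It passed under 4 of 15 alternatives, Aquantile scaling among them.

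**Figure D3:**
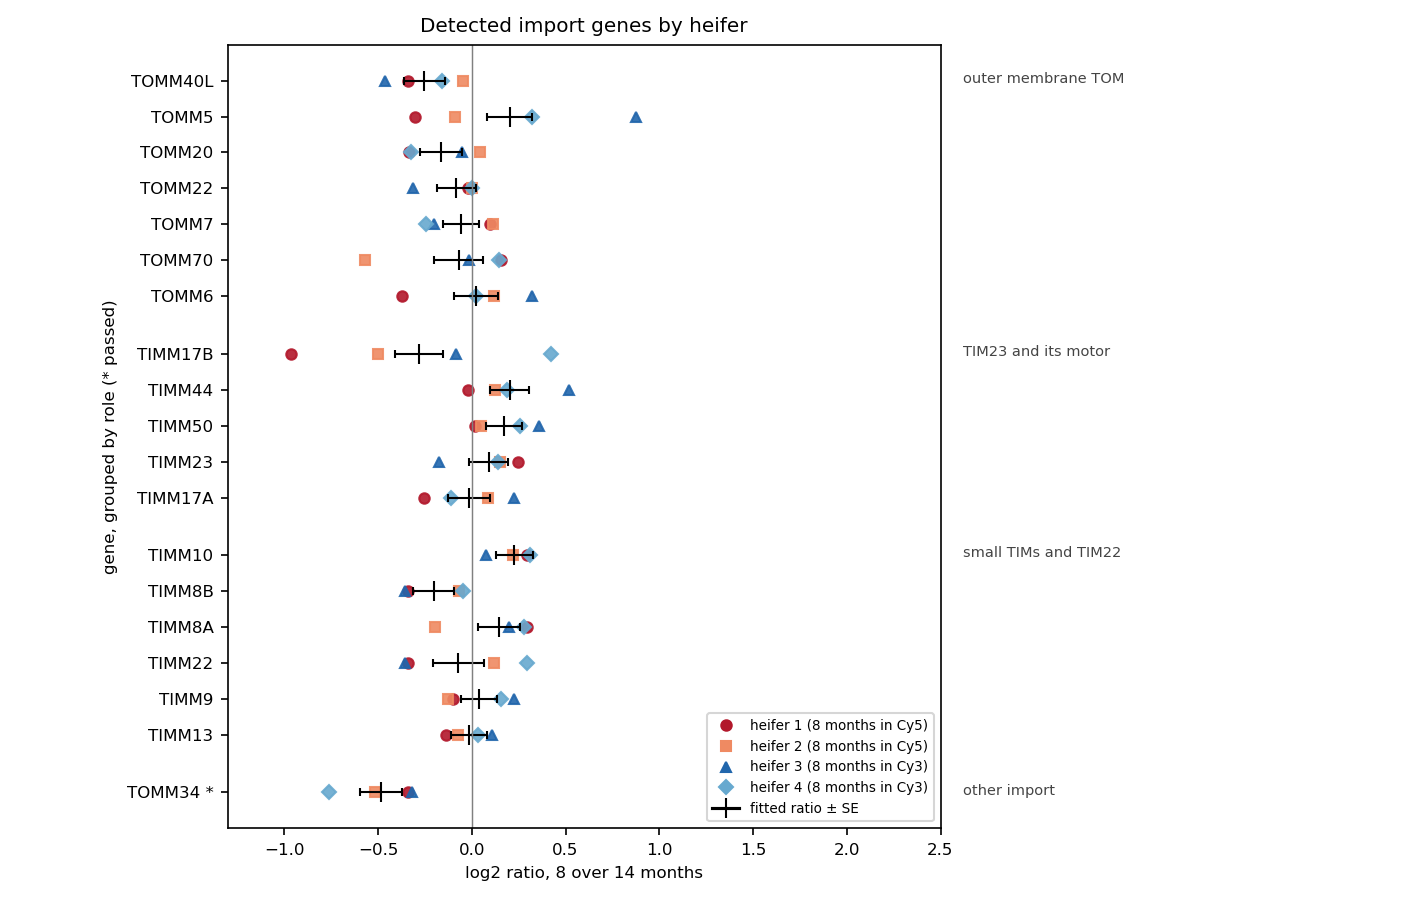
Log2 ratio of 8 over 14 months (x axis) for the 19 detected import genes, grouped by complex (y axis). Coloured points are the 4 heifers and black bars the fitted ratio with its standard error. TOMM34, marked with an asterisk, lies left of 0 in every heifer, and the fitted ratios of the other 18 genes lie between -0.28 and 0.23.

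All 5 TIM23 genes on the array that met the symbol rule were detected. Of these 0 passed or had an unadjusted p under 0.05 (limma), where 27.3% of all genes had the latter. TIMM17B, a channel subunit, had levels of 10.21, 10.54, 10.42 and 10.56 at 8 months, against 11.18, 11.04, 10.51 and 10.14 at 14 months. Its ratio spread from -0.97 in heifer 1 and -0.50 in heifer 2 to -0.08 in heifer 3 and 0.42 in heifer 4. The fitted ratio of TIMM17B was -0.28 ± 0.13 (adjusted p = 0.194), and the SD over heifers was 0.59.

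TIMM17A, its paralogue, had 5 detected probes, all with a fitted ratio below 0, from -0.33 to -0.01, and the brightest probe gave the value nearest 0. TIMM44, which tethers mitochondrial Hsp70 to the channel, had ratios of -0.02, 0.12, 0.52 and 0.19 and a fitted ratio of 0.20 ± 0.10 (adjusted p = 0.243). TIMM50, the receptor of the complex, had 2 probes, at 0.17 and 0.34. TIMM23, the channel itself, had levels of 12.63, 12.65, 12.54 and 12.73 at 8 months, against 12.38, 12.49, 12.71 and 12.59 at 14 months. Its fitted ratio was 0.09 ± 0.10 (adjusted p = 0.596), and it was -0.27 under median centring.

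The small TIM chaperones and TIMM22 are the route by which the carriers reach the inner membrane. Those that met the symbol rule were all detected, 6 of 6. Of these 0 passed or had an unadjusted p under 0.05 (limma), where 27.3% of all genes had the latter. TIMM10 had levels of 10.58, 10.17, 9.90 and 9.99 at 8 months, against 10.28, 9.95, 9.82 and 9.68 at 14 months. Its ratio was positive in all 4 heifers (0.30, 0.22, 0.08 and 0.31), with a fitted ratio of 0.23 ± 0.10 (adjusted p = 0.186). The fitted ratio turned to -0.03 under median centring, where the median of all genes was -0.18. TIMM9, its partner in a hexameric complex, had a fitted ratio of 0.04. TIMM8B had negative ratios in all 4 heifers (-0.34, -0.07, -0.36 and -0.05) and a fitted ratio of -0.20 ± 0.11 (adjusted p = 0.252). TIMM8A, TIMM13 and TIMM22 had fitted ratios of 0.14, -0.02 and -0.07.

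Carriers were then set beside the import machinery as groups. The median fitted ratio was 0.04 over the 27 carriers and -0.02 over the 19 import genes, where the median over all genes was -0.0035. Of the carriers 16 had a ratio above 0 (59.3%), and of the import genes 8 did (42.1%), against 49.3% of all genes. The carrier median was 0.01, 0.07, 0.04 and 0.03 in heifers 1 to 4, and the import median was -0.14, 0.0035, -0.01 and 0.14. The carrier median exceeded the import median by 0.15, 0.07 and 0.06 in heifers 1 to 3 and lay below it in heifer 4, at -0.11. The mean of these differences was 0.04 with an SD of 0.11 over 4 heifers, so the families differed by less than the spread between heifers. Median centring moved the median of all genes to -0.18, and the carrier and import medians to -0.14 and -0.32.

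**Figure D4:**
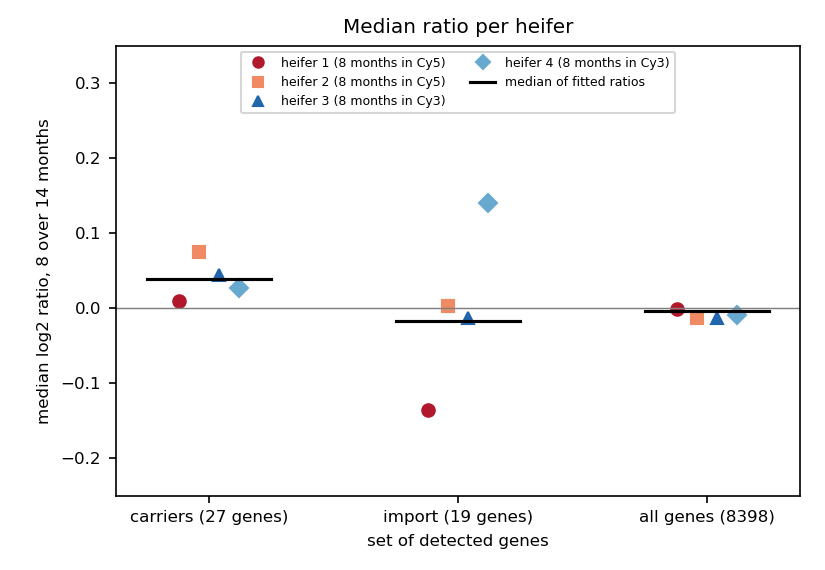
Median log2 ratio of 8 over 14 months (y axis) over the 27 carriers, the 19 import genes and all 8398 detected genes (x axis), with a coloured point for each heifer and a black line for the median of fitted ratios. Import medians spread from -0.14 in heifer 1 to 0.14 in heifer 4, while carrier medians lie between 0.01 and 0.07.

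The ratio had 1 sign in all 4 heifers for 9 carriers, 7 higher and 2 lower at 8 months, and for 5 import genes, 2 higher and 3 lower. Together these were 14 of 46 members, or 30.4%, against 27.6% of all genes. The mean of heifers 1 and 2 and that of heifers 3 and 4 had opposite signs for 7 carriers and 9 import genes, where 44.2% of all genes had this. The SD of a ratio over the 4 heifers had a median of 0.26 for carriers, 0.19 for import genes and 0.25 for all genes.

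Several probes of 1 gene gave a check that the choice of the brightest probe does not use. Of 11 members with more than 1 detected probe, 6 had fitted ratios of the same sign on every probe (SLC25A5, SLC25A37, SLC25A39, TIMM17A, TIMM23 and TIMM50). In the other 5 the signs were mixed (SLC25A22, SLC25A26, SLC25A38, TIMM13 and TOMM22). None of the 4 genes that passed had a second detected probe, so no other probe bears on them. Tested over all probes in place of genes, those 4 had adjusted p of 0.0569 for SLC25A4, 0.0518 for SLC25A30, 0.0645 for SLC25A12 and 0.0653 for TOMM34.

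**Figure D5:**
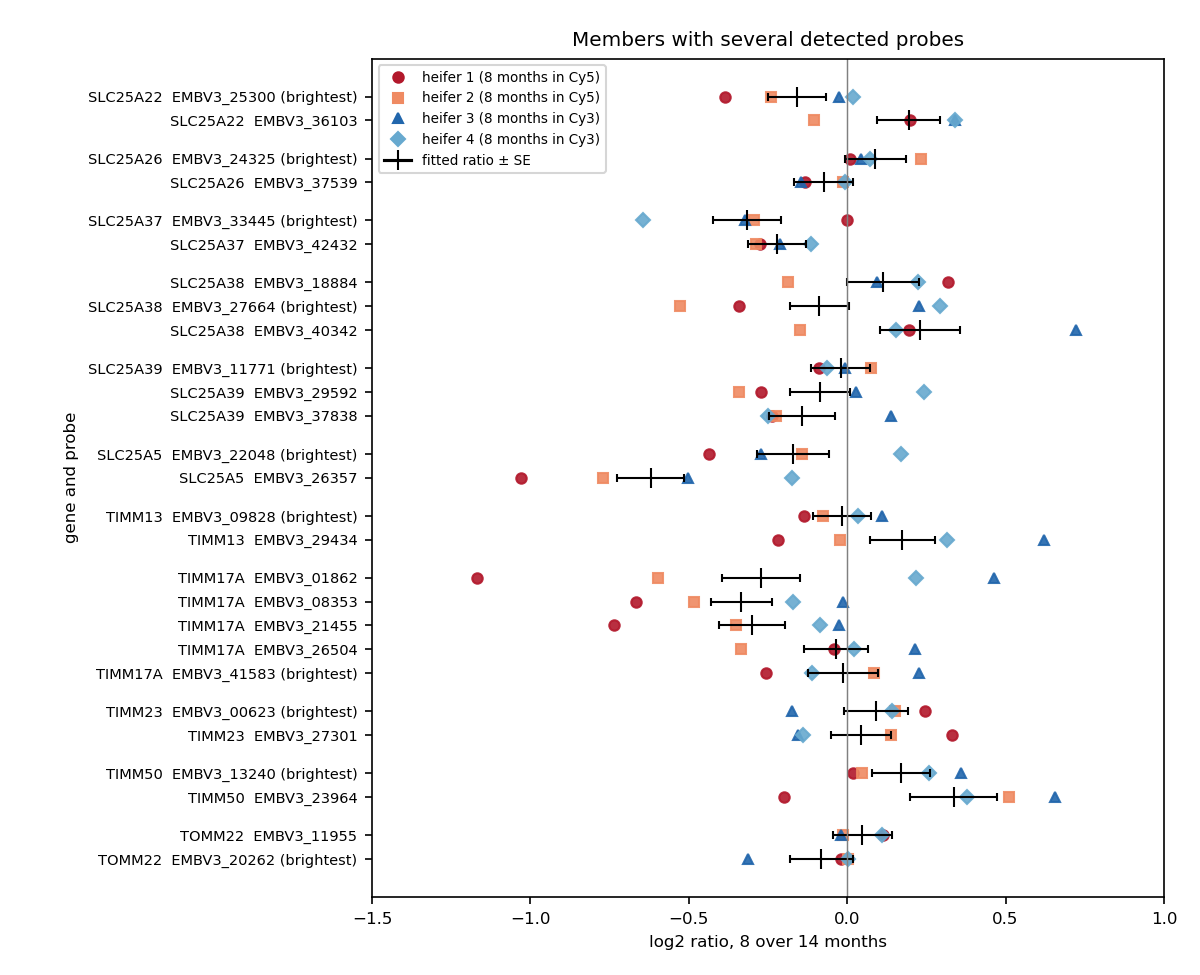
Log2 ratio of 8 over 14 months (x axis) for each detected probe of the 11 members with several (y axis), with coloured points for the 4 heifers and black bars for the fitted ratio and its standard error. Both probes of SLC25A5 and all 5 of TIMM17A have a fitted ratio left of 0, while probes of SLC25A22 and SLC25A38 fall on both sides.

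Proteins that work with the import machinery under other names were read from a separate list of 23, of which 20 were detected. In it 1 gene was higher at 8 months and 1 was lower, so 10% passed, against 4.50% of all genes. The other 18 did not pass. An unadjusted p under 0.05 was found for 5 of the 20 (limma; 25%, against 27.3% of all genes). DNAJC19, a J-protein of the TIM23 motor, had levels of 10.07, 10.09, 9.74 and 10.02 at 8 months, against 9.46, 9.46, 9.52 and 9.46 at 14 months. The ages did not overlap, the ratio was 0.62, 0.63, 0.22 and 0.56, and the fitted ratio was 0.51 ± 0.10, a 1.42-fold difference (adjusted p = 0.0387). PMPCB, the catalytic subunit of the peptidase that removes presequences in the matrix, had levels of 10.16, 10.40, 10.62 and 9.81 at 8 months, against 10.86, 11.08, 10.74 and 10.04 at 14 months. Its ratio was -0.69, -0.68, -0.12 and -0.23, negative in every heifer although the ages overlapped, and the fitted ratio was -0.43 ± 0.10 (adjusted p = 0.0469). Over 15 alternatives the adjusted p (limma) ran from 0.0292 to 0.308 for DNAJC19 and from 0.00199 to 0.268 for PMPCB. Each passed under 7 of them, neither without any 1 heifer. Those 7 include Aquantile scaling, which leaves every ratio unchanged. DNAJC19 had a ratio of 0.25 to 0.59 and PMPCB of -0.71 to -0.39 over these alternatives. The median over the 20 genes was 0.02.

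A second list held 22 other transport genes of the mitochondrial membranes, among them the pyruvate carrier, the sideroflexins, the calcium uniporter and the outer membrane pores. Of these 14 were detected, 0 passed and 5 had an unadjusted p under 0.05 (limma; 35.7%, against 27.3% of all genes), with a median fitted ratio of -0.03. VDAC3, an outer membrane pore for metabolites, had the smallest p. It was read from a probe that the platform lists as VDAC1P5, a name updated to VDAC3, and which gene the probe reads was not tested. Its levels were 9.99, 9.95, 9.64 and 9.67 at 8 months, against 9.64, 9.67, 9.42 and 9.23 at 14 months. The ratio was 0.35, 0.29, 0.22 and 0.44, positive and of like size in all 4 heifers, with a fitted ratio of 0.33 ± 0.10 that did not pass (adjusted p = 0.0888).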

How the data were processed

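The deposited scanner tables give linear, unnormalized foreground and background intensity of every spot for Cy5 and Cy3, per the file headers. A value table deposited by the authors holds log2 ratios of 8 over 14 months (r = 0.98 to 0.998 with the scanner ratios over 10949 bright probes, column medians -0.0014 to 0.0094). Its background correction, normalization and centring are not stated in the labels or headers, so it served as an alternative. Median intensities were corrected with normexp (offset 50) and normalized by loess within each array, with control spots at no weight (limma 3.58.1, R 4.3.3). Background was set at 2 SD over the mean signal of 153 negative control spots, separately for every array and dye. A probe was tested if 3 or more of the 4 samples of either age cleared it, which kept 17685, and each of 8398 genes was represented by its brightest detected probe. Symbols come from the platform annotation, updated through the RefSeq gene table of ARS-UCD2.0. No build is given for the probes, so no positions are reported, and probe sequences were not used here.

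The age effect was fitted on all genes with lmFit and eBayes and 1 dye term for the 4 arrays, which leaves 2 residual degrees of freedom. Tests were two-sided, adjusted by Benjamini-Hochberg over all genes or all probes, with a threshold of 0.05, and the fit was checked on simulated data. Heifers were separate animals, and precision is limited by having 4 arrays. Each array pairs the ages of 1 heifer, so the pairing lies within the ratio. Levels are channel intensities after loess and Aquantile scaling. Named genes were all members that passed, the 2 detected members with the smallest p in each role, SLC25A3, SLC25A5, SLC25A20, TOMM20, TOMM40 and TIMM23, and in each partner list those that passed and the 1 with the smallest p. SLC25A25, SLC25A15, TIMM17A and the paralogue pairs were described after their values were seen. The members and lists were chosen with earlier results of these data known. Alternatives changed the dye term, normalization, background correction, pixel summary, detection filter, moderation, choice of probe and heifers. The alternative that added Aquantile scaling leaves every ratio as in the main analysis, so its outcome repeats that analysis.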

Additional observations from a re-analysis of the deposited data

Results flagged for a closer look

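TOMM22, a receptor of the outer membrane complex, had 1 heifer far from the others on its brightest probe. Its ratio was -0.31 in heifer 3 and -0.02 to 0.0035 in the other 3 heifers. The gap of heifer 3 took up 0.93 of the whole range, past Dixon's 95% critical value for 4 values. Its second probe gave -0.02 in heifer 3. TOMM22 was 1 of 46 members past this value (2.17%), against 372 of 8398 genes (4.43%), where chance gives about 1 in 20.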

How the results depend on the processing

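In the main analysis 3 carriers and 1 import gene passed (11.1% and 5.26%, against 4.50% of all genes). The median ratios were 0.04 and -0.02, with a difference of 0.06. Without a dye term, with mean pixel intensities and without moderation, 0 carriers and 0 import genes passed, with 8, 11 and 8 members at an unadjusted p under 0.05 (limma). Under each of these, 0 of all 8398 genes passed. Tested over all probes, 1 carrier and 0 import genes passed. Import genes that passed were also 0 with no background correction, with the authors' normalized ratios, with detection in all 8 channels and with the mean of all probes, with 7 to 14 members at an unadjusted p under 0.05. Leaving out 1 heifer gave 0 to 3 carriers and 0 import genes, with 8 to 15 members at an unadjusted p under 0.05. Without heifer 4 the carriers that passed were SLC25A1, SLC25A30 and SLC25A6. Median centring gave 2078 genes that passed, 39 higher and 2039 lower, among them 5 carriers and 7 import genes, and moved the medians to -0.14 and -0.32 and their difference to 0.17. It reversed TOMM5 (-0.13), TIMM10 (-0.035), SLC25A3 (-0.27) and TIMM23 (-0.27), while the median of all genes itself moved to -0.18, below TOMM5 and TIMM10. The carrier median was 0.091 with detection in all 8 channels, 0.0094 with no filter and 0.0083 in heifers 3 and 4 alone, where the difference was -0.057. Leaving out 1 heifer gave -0.025 (heifer 3, reversed) to 0.857 (heifer 4) for SLC25A1 and -0.047 (heifer 3, reversed) to 0.0968 for SLC25A28, which mean pixel intensities also reversed (-0.0015). The cause of these changes was not tested, beyond the smaller number of arrays where heifers were left out. Over the 22 named genes, 331 values kept direction and, where a p was fitted, side of the threshold under an alternative. Of the rest, 39 lost the threshold, 9 gained it and 7 reversed. Another 5 also changed sign, SLC25A1 and TOMM5 in heifers 1 and 2 alone and TIMM17B, SLC25A3 and TIMM23 in heifers 3 and 4 alone. These pairs of heifers had no test. The 331 include 22 values under Aquantile scaling, which leaves every ratio unchanged. All 4 arrays came from 1 slide by the tables' names, so no slide block could be fitted. Signals near background limit SLC25A12, TOMM34, SLC25A15 and SLC25A29.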

Other observations

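A carrier stood outside the symbol rule because the platform lists it under an older name. SLC25A51, which brings NAD into mitochondria (listed as MCART1), had ratios of 0.58, 0.18, 0.47 and 0.81 in heifers 1 to 4 and was 1.42-fold higher at 8 months (0.51 ± 0.11, adjusted p = 0.0478, limma over all genes). It was above background in 4 of 4 samples of each age, and its adjusted p over all probes was 0.0645. It passed under 4 of 15 alternatives, with an adjusted p of 0.0409 to 0.332 (limma). Those 4 include Aquantile scaling, which leaves every ratio unchanged. TIMM10B (listed as FXC1) had a fitted ratio of -0.01 and TIMM21 (listed as C17H18orf55) 0.06, and neither passed. These 3 genes were added after the data were seen. With them the carrier median was 0.06 and the import median -0.01.

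VDAC1, the main pore of the outer membrane, had ratios of 0.79, 0.48, -0.89 and -0.47 in heifers 1 to 4, and GRPEL2, a nucleotide exchange factor for mitochondrial Hsp70, had 0.57, 0.55, -0.57 and -0.58. Both were positive in the heifers with 8-month RNA in Cy5 and negative in those with it in Cy3. Their fitted ratios were -0.02 and -0.01. Both were picked after their values were seen.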
